A study of Drosophila melanogaster with 3 samples.

Results

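Peaks of the CG12659 protein at internal alternative promoters were examined in *Drosophila melanogaster* embryos. An internal promoter here was an annotated transcription start site (TSS) of a protein-coding gene that lay more than 1000 bp downstream of that gene's most 5' TSS, called its first TSS. A peak was a member when its nearest TSS was such an internal TSS, within 500 bp of the summit, and when no first TSS of any protein-coding gene lay within 500 bp of the summit. This rule, which used positions only, gave 574 of the 8952 peaks of the authors' reproducible set, the IDR peaks of the plots (6.41%), in 446 genes and at 521 TSSs. They formed 524 separate stretches of DNA, because the authors' list can give several summits to 1 region, and 18 members repeated the coordinates of another. The peaks with a first TSS within 500 bp of the summit, 4845 in number, served for comparison.

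The experiment was a chromatin immunoprecipitation with sequencing (ChIP-seq) of 1 group with 3 biological replicates. Chromatin came from whole embryos aged 0 to 24 hours, males and females pooled, of a transgenic line carrying CG12659 with GFP at its C terminus, and was precipitated through the GFP tag. Neither the promoter driving the fusion protein nor the state of the untagged gene is named in the sources used here. Deposited were lists of enriched regions with a signal value from the authors' peak caller, so read depth per sample was unknown. Signal values have a different scale in each list and were compared only within a list. Of the members, 571 had a matching region in replicate 1, 569 in replicate 2 and 562 in replicate 3, and 555 had one in all 3. The embryos were whole and of all stages, so binding in few cells and weak binding in many cells cannot be told apart in any value below.

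Alternative promoters let 1 gene make transcripts with different first exons, which can begin translation at different start codons or be used in different tissues and stages. In flies, genes active in most cells often have promoters with the DNA replication-related element (DRE), bound by DREF, the related site bound by the insulator protein BEAF-32, or the motif bound by M1BP. Developmentally regulated promoters more often hold GAGA elements, bound by GAGA factor, and an initiator (Inr) at the TSS. CG12659 is annotated as the fly counterpart of INO80C, a subunit of the INO80 complex, which uses ATP to move nucleosomes.

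A window of 50 bp on either side of each summit was searched on both strands for 10 motifs. The following sequences are from the *D. melanogaster* release 6 genome (dm6), 5' to 3' on the strand of the gene, so that the summit is the middle base. For each motif whose share differed between the peak classes, 2 of the strongest members that hold it are shown, with the motif or its reverse complement in capitals. The capitals mark matches of letters near summits, not known sites; the TCAGT of gish and larp is on the opposite strand and away from the TSS, and the last sequence, from Eno, holds none of the 10 motifs.
cnc (DRE, chr3R:23190066-23190166, minus strand): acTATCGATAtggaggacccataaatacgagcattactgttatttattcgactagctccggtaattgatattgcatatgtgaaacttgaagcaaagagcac
Sur-8 (DRE, chr3R:17401471-17401571, minus strand): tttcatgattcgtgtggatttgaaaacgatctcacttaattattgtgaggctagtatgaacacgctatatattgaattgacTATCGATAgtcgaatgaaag
MFS10 (CGATA, chrX:13131302-13131402, plus strand): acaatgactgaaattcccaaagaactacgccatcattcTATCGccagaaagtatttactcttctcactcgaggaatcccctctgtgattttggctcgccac
CHES-1-like (CGATA, chrX:7697043-7697143, minus strand): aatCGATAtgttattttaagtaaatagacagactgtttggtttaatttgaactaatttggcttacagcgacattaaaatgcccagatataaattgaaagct
Nedd4 (M1BP, chr3L:17533375-17533475, plus strand): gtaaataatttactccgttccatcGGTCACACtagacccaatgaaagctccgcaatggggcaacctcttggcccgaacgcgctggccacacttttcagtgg
lute (M1BP, chr3R:17385792-17385892, plus strand): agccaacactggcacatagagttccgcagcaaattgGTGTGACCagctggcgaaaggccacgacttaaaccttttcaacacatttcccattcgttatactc
bbx (GAGAG, chrX:21367797-21367897, plus strand): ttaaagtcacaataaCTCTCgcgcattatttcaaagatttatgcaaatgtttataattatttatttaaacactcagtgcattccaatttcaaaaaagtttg
dnc (GAGAG, chrX:3255676-3255776, plus strand): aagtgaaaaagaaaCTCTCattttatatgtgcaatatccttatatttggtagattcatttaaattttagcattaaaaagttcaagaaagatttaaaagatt
gish (TCAGT, chr3R:16280678-16280778, plus strand): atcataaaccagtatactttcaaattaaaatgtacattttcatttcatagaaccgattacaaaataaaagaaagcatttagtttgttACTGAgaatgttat
larp (TCAGT, chr3R:28326546-28326646, minus strand): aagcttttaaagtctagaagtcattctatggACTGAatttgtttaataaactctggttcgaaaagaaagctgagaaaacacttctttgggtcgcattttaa
Eno (no motif, chr2L:1727889-1727989, minus strand): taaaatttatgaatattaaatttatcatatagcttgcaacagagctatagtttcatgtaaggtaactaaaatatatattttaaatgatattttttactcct

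The DRE was searched as TATCGATA, which contains the BEAF-32 site CGATA. The M1BP motif was searched as GGTCACAC, the GAGA element as GAGAG and the Inr core as TCAGT. The sequence of cnc, which encodes the fly counterpart of the stress-response factor Nrf2, holds its DRE near the upstream end of the window. That summit lay 303 bp downstream of the internal TSS, so this DRE also lies downstream of the TSS. The pair of M1BP motifs, at Nedd4, a ubiquitin ligase gene, and at lute, lies closer to the summits. The windows of gish and larp, among the strongest of all members by signal, hold A or T at 76.2% and 67.3% of their bases, and that of Eno at 80.2%. The other windows shown range from 47.5% at Nedd4 to 78.2% at dnc. No share over all members was taken, and a relation to signal was not tested.

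Over all peaks of the classes, internal promoter peaks held the motifs of broadly active promoters less often than first-TSS peaks, and GAGA elements more often. Within the genes that had both peaks, the GAGA counts of the promoters were close, as given below. The BEAF-32 site was in 13.2% of internal promoter windows (95% exact interval 10.6 to 16.3) and in 30.2% of first-TSS windows (28.9 to 31.5), an odds ratio of 0.353 with an adjusted exact p of 1.87e-18. The DRE was in 1.22% of internal promoter windows and 6.17% of first-TSS windows (odds ratio 0.188, adjusted exact p = 1.33e-07). The M1BP motif was in 1.05% of internal promoter windows and 5.70% of first-TSS windows (odds ratio 0.175, adjusted exact p = 1.46e-07). GAGA elements were in 14.8% (12 to 18) of internal promoter windows and in 8.88% (8.09 to 9.71) of first-TSS windows, an odds ratio of 1.78 and an adjusted exact p of 3.91e-05. The Inr core was in 20.9% of internal promoter windows and 16.7% of first-TSS windows (odds ratio 1.32, adjusted exact p = 0.0275). That call was lost in each of 3 sets made from the matching highest regions of the other replicates, without an IDR step. There the adjusted exact p was 0.344 without replicate 1, 0.160 without replicate 2 and 0.218 without replicate 3. In windows of the same length around the summits of all 30000 regions of the pooled list, these 5 motifs were in 15.5%, 1.54%, 1.37%, 11.4% and 17.2%, in the same order. In the 3415 reproducible peaks with no TSS of a protein-coding gene within 500 bp they were in 10.8%, 0.410%, 0.351%, 9.52% and 18.4%. The tests between internal promoter and first-TSS windows were two-sided Fisher's exact tests over peaks. Benjamini-Hochberg adjustment was over the 10 motifs, 5 of which (50%) passed at 0.05. These tests measure spread over peaks and not between replicates.

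The other 5 motifs did not pass. The E-box CAGCTG was in 5.23% of internal promoter windows and 6.69% of first-TSS windows, and the E-box CACGTG in 0.697% and 0.908%. The core GCCAT, bound by the Polycomb-group protein Pho, was in 13.2% and 16.2%, and TATAAA in 19.7% and 17.3%. CAGGTAG, the site of the early activator Zelda, was in none of the 574 internal promoter windows, which allows a share of up to 0.641%, and in 0.433% of first-TSS windows. In 213 internal promoter windows (37.1%) none of the 10 motifs was found.

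**Figure D1:**
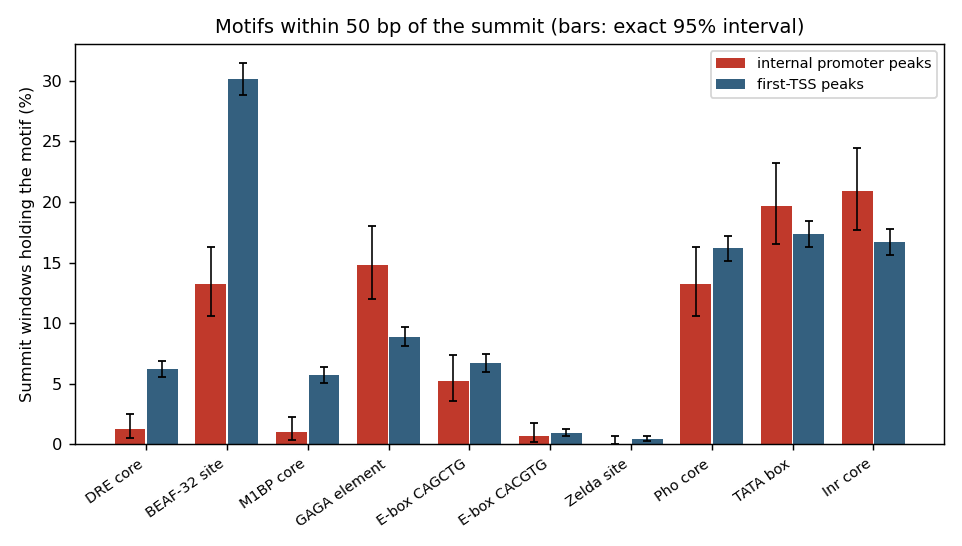
Share of summit windows (50 bp on either side) that hold each of 10 motifs on either strand, in percent, for internal promoter peaks (left bar of each pair, n = 574) and first-TSS peaks (right bar, n = 4845), with exact 95% intervals. The BEAF-32 site is in 13.2% of internal promoter windows and 30.2% of first-TSS windows, while the GAGA element is in 14.8% and 8.88%.

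The motif shares were also compared among peaks at like distances from the nearest TSS, which for a first-TSS peak can be one other than the first. Among summits within 100 bp of the TSS (130 internal promoter peaks and 2908 first-TSS peaks), the BEAF-32 site was in 26.9% of internal promoter windows and 40.2% of first-TSS windows (adjusted exact p = 0.00800). GAGA elements there were in 19.2% of internal promoter windows and 8.60% of first-TSS windows, and the Inr core in 31.5% and 17.8% (adjusted exact p = 0.00141 for both). The DRE, in 3.85% of internal promoter windows and 9.77% of first-TSS windows, no longer passed (adjusted exact p = 0.0528), and neither did the M1BP motif, in 3.85% and 8.70% (adjusted p = 0.106). Among summits over 100 bp away (444 internal promoter peaks and 1937 first-TSS peaks), the BEAF-32 site alone passed, in 9.23% of internal promoter windows and 15.1% of first-TSS windows (adjusted exact p = 0.0107). The M1BP motif there was in 1 internal promoter window and 23 first-TSS windows, an odds ratio of 0.188, against 0.175 in the whole set, on few windows (adjusted exact p = 0.228). GAGA elements there were in 13.5% of internal promoter windows and 9.29% of first-TSS windows (adjusted exact p = 0.0550). This split was chosen after seeing the data, and uses the same two-sided Fisher's exact tests.

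In windows of the same length centred on the TSS instead of the summit, the Inr core was in 40.5% of the 519 internal TSSs nearest to a member and in 38.8% of the 2276 internal TSSs at sites without a member. It was in 22.6% of the 4286 first TSSs nearest to a first-TSS peak. GAGA elements were in 21% of internal TSSs with a member, 15.2% of those without and 11.8% of first TSSs with a peak. The BEAF-32 site was in 15.4% of internal TSSs with a member, 14.1% of those without and 38.1% of first TSSs with a peak. The DRE was in 1.35% of internal TSSs with a member, 0.264% of those without and 10.6% of first TSSs with a peak. TATAAA was in 5.59% of internal TSSs with a member, 11.5% of those without and 9.85% of first TSSs with a peak. At the 9399 first TSSs not nearest to a peak the Inr core was in 35%, the BEAF-32 site in 19.97%, GAGA elements in 11.5%, the DRE in 3.28% and TATAAA in 20.5%. These are values with no test.

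The motifs were also counted by gene in the genes that had both peaks. Whether sharing between the promoters of a gene departs from what the motif shares alone give was not tested. Of 266 such genes, the BEAF-32 site was at the internal peak alone in 28, at the first-TSS peak alone in 78 and at both in 5. The Inr core was at the internal peak alone in 49, at the first-TSS peak alone in 30 and at both in 11. GAGA elements were at the internal peak alone in 32, at the first-TSS peak alone in 29 and at both in 6. For GAGA elements the promoters of these genes were thus close, unlike the shares over all peaks of the classes. The DRE was at the internal peak alone in 3 and at the first-TSS peak alone in 11, with no gene holding it at both. The M1BP motif was at the internal peak alone in 2, at the first-TSS peak alone in 15 and at both in 0. Both motifs were rare at these peaks, so these counts are small.

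Positions were taken from the nearest TSS of any protein-coding gene. For a first-TSS peak that can be a TSS other than the first, also of another gene. Summits of internal promoter peaks lay mostly upstream of the nearest TSS and farther from it than those of first-TSS peaks. The median position was -186 bp (quartiles -312 and -33) for internal promoter peaks and -48 bp (-122 and 12) for first-TSS peaks, where negative values are upstream. Of the internal promoter peaks, 449 (78.2%, 95% exact interval 74.6 to 81.5) had the summit upstream, against 3419 (70.6%, 69.3 to 71.8) of the first-TSS peaks, an odds ratio of 1.5 (1.22 to 1.84; two-sided Fisher's exact test, p = 0.000111). With peaks limited to 200 bp from the TSS the shares were 68.7% and 69.4% (exact p = 0.840). Only 130 internal promoter peaks (22.6%) had the summit within 100 bp of the TSS, against 60.0% of first-TSS peaks. Positions over 100 and up to 400 bp upstream held 54.7% of the internal promoter summits and 29.3% of the first-TSS summits. For the 118 peaks near other TSSs, which lay at most 1000 bp downstream of the first, the median position was 31 bp.

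**Figure D2:**
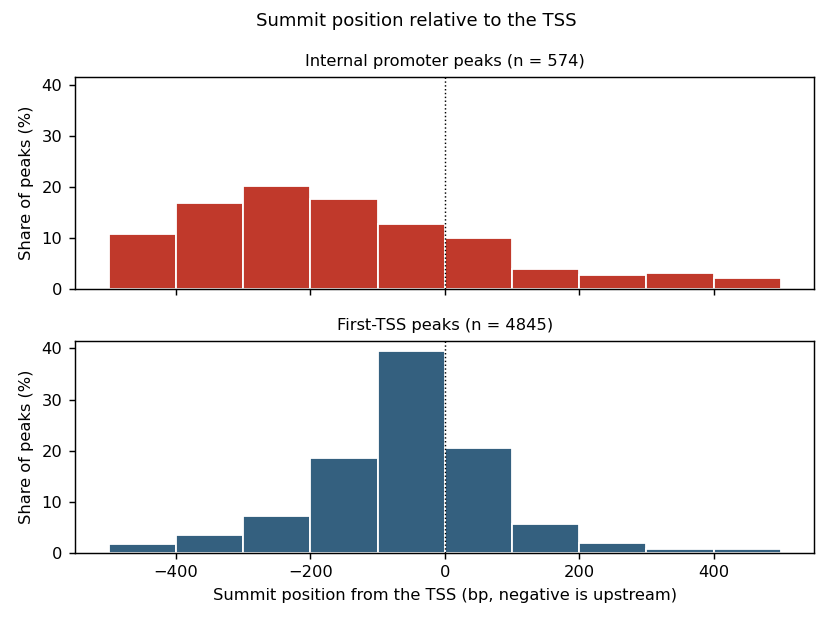
Position of the peak summit relative to the nearest TSS of any protein-coding gene, in 100-bp bins, as a percentage of the peaks of each class. Internal promoter peaks are above (n = 574) and first-TSS peaks below (n = 4845), for which the nearest TSS can be one other than the first. The largest bin of the internal promoter peaks is 300 to 200 bp upstream (20.2%), and that of the first-TSS peaks is the 100 bp just upstream of the TSS (39.5%).

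The sequence under the internal summits was mostly intron. Of the 574 summits, 468 (81.5%) lay in an intron of the annotated gene models, 103 (17.9%) in a noncoding part of an exon and 3 in coding sequence. No such shares were taken for other positions within genes. A TSS of a noncoding RNA gene was within 500 bp of 24 members (4.18%), against 4.93% of first-TSS peaks. For 300 members (52.3%) the transcripts of the internal TSS began translation at a start codon that no transcript of the first TSS uses. The share among all internal TSSs that could carry a peak was 52.8% for the 576 at sites with a peak and 54.2% for the 2276 at sites without one. The Ensembl canonical transcript of the gene, the one chosen to represent it, began at the TSS of 131 members (22.8%). By site, it began at 24.3% of the internal sites with a peak and at 20.4% of the 2084 without one. The members lay a median of 4910 bp downstream of the first TSS (quartiles 2065 and 15432), and 39 lay over 50000 bp downstream.

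A total of 2599 internal sites in 1665 genes met the distance rules, where TSSs of 1 gene up to 500 bp apart were joined into a site. A reproducible peak lay at 515 of them, which is 19.8% (95% exact interval 18.3 to 21.4). A further 775 (29.8%) had only a region of the pooled list that was not in the reproducible set. The first TSSs of the same genes had a peak in 816 of 1665 (49.0%), against 40.3% of the first TSSs of all 13945 protein-coding genes. The rules for internal sites and first TSSs were unlike. A first TSS counted with any summit within 500 bp, so 1 peak could count for several genes, and 4845 peaks gave 5624 such first TSSs. An internal site counted only where it held the TSS nearest to the summit, with no first TSS within 500 bp of that summit. The share of internal sites with a peak was 20.9% between 1000 and 2000 bp downstream, 19.9% to 5000 bp, 19.7% to 20000 bp and 18.7% beyond. A change with distance was not tested. In genes with a peak at the first TSS 23.6% of the internal sites (21.3 to 25.9) had one, and in genes without it 16% (14 to 18.1). Sites with several annotated transcripts were 48.3% of the sites with a peak and 35% of those without.

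By gene, 444 of the 1665 (26.7%) had an internal peak at an eligible site. The other 2 of the 446 genes had their member at a TSS outside the eligible sites, and 1 of them also had a first-TSS peak, which makes 266 genes with both peaks where eligibility was not asked. Both promoters had a peak in 265 genes, the internal one alone in 179, the first TSS alone in 551 and neither in 670. In 97 of the 179 genes the first TSS carried a weaker region outside the reproducible set, so for those the absence rests on the authors' threshold. A first TSS with the first TSS of another gene on the opposite strand within 1000 bp was present in 38.9% of the genes with both peaks and in 16.2% of those with the internal peak alone. It was present in 42.3% of the genes with the first-TSS peak alone and in 12.1% of those with neither. The canonical transcript began at an internal site in 43.4% of the genes with both peaks, 38% with the internal peak alone, 26.0% with the first-TSS peak alone and 33.6% with neither.

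The median pooled signal was 358 at internal promoter peaks (quartiles 254 and 603) and 391.6 at first-TSS peaks (275 and 585). In the single replicates the ratio of the class medians, internal over first, was 0.849, 0.993 and 0.852, a mean of 0.898 ± 0.0825 (SD, n = 3). The exact sign-flip test over 3 replicates gave p = 0.25, the smallest it can give. Of the internal promoter peaks, 438 (76.3%) matched a region among the 8952 highest in every replicate, against 83.4% of first-TSS peaks (odds ratio 0.641, 0.521 to 0.788; two-sided Fisher's exact test, p = 4.25e-05). Among the peaks with a signal above the median of the reproducible set these shares were 97.2% and 98.0% (exact p = 0.379). Both tests count peaks, some of which share a stretch of DNA, and do not measure spread between replicates. The reproducible set had itself been kept for agreement between replicates. At the upper end internal promoter peaks made up 97 of the 1000 strongest peaks (9.70%) and 12 of the 100 strongest, against 6.41% of the whole set. Members within 100 bp of their TSS had a median signal of 311, and members farther away 377. In the replicates the ratio of those medians was 0.937, 0.766 and 0.706, a mean of 0.803 ± 0.120 (SD, n = 3; exact sign-flip p = 0.25).

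The 20 strongest members had their summit 134 to 372 bp upstream of the internal TSS without exception, and all were among the highest regions of every replicate. Of these, 18 lay in introns and 2 in noncoding exon sequence. The strongest was at CG1888, on arm 2R (chr2R:9546963-9547505), 1177 bp downstream of the first TSS, with a signal of 1620 in replicate 1, 1271 in replicate 2 and 936 in replicate 3. The second was at px, known for its role in wing vein patterning (chr2R:22514072-22514522), 47966 bp downstream, with 1558, 1345 and 900 in replicates 1, 2 and 3. The third was at gish, which encodes a casein kinase I (chr3R:16280489-16280978), 8437 bp downstream, with 1345, 1115 and 721. All 3 stood at ranks 12, 15 and 30 of the whole reproducible set. The list went on with larp, for a La-related RNA-binding protein, and MFS10, for a membrane transporter, at pooled signals of 3000 and 2437. It also held Eno, the glycolytic enzyme enolase (2334), Rtnl1, an endoplasmic reticulum reticulon (2289), Fhos, an actin-nucleating formin (2266), and Drat (2231). RapGAP1, which switches off the GTPase Rap1, had 2179, PAN3, a subunit of the poly(A) nuclease, had 2139, and REPTOR, a transcription factor controlled by the TOR pathway, had 2129. The remaining 8 were mrj, which encodes a DnaJ-type chaperone, CG8036, sgg, bbx, Sarm, brwl, bin3 and chn, with signals between 1762 and 2045. Of the 20 genes, 16 also had a peak at the first TSS, and the internal peak was the higher one in 15 of them, with brwl (1873 at the internal TSS and 2306 at the first) as the exception. The genes were chosen for a high internal signal, so this count says little of the 2 promoters.

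**Figure D3:**
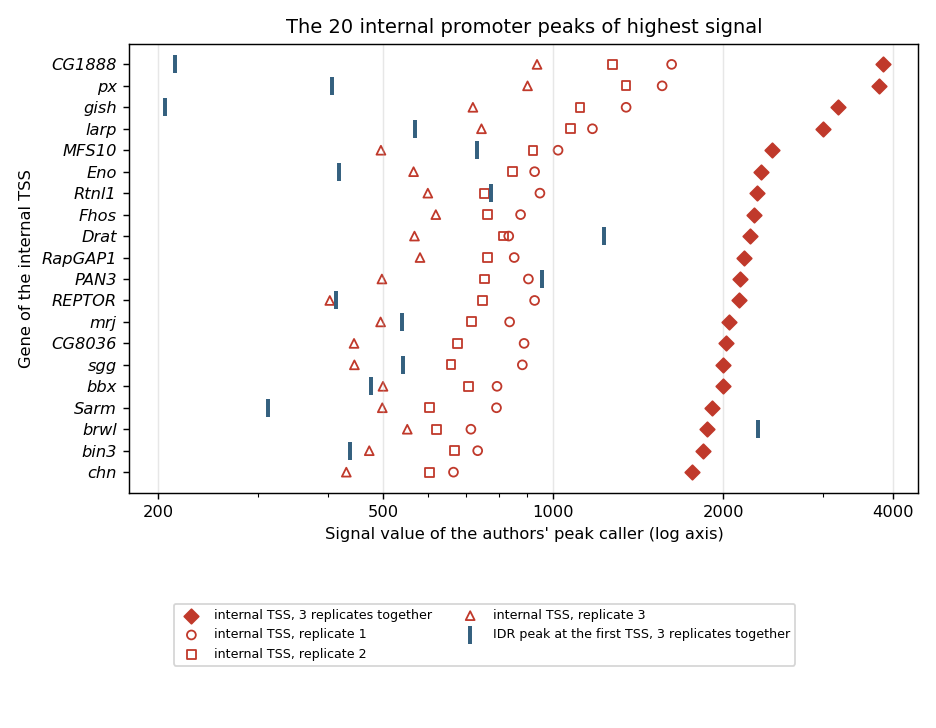
Signal value, on a log axis, of the 20 strongest internal promoter peaks, with the 3 replicates together (diamonds) and in each replicate (open symbols), and of the peak at the first TSS of the same gene with the replicates together (bars). Each list has its own scale, so diamonds compare with bars and open symbols only with their own kind. The diamond lies right of the bar in 15 of the 16 genes with a bar, which were chosen for a high internal signal.

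Across all 266 genes with both peaks, the members outside eligible sites included, the internal peak was the higher one about as often as the first-TSS peak. The median log2 ratio of the highest internal peak over the first-TSS peak was 0.0068 in the pooled list (quartiles -0.77 and 0.94), and -0.05, 0.16 and 0.08 in replicates 1, 2 and 3. The replicate mean was 0.07 ± 0.11 (SD, n = 3; exact sign-flip p = 0.5, where 0.25 is the smallest possible). The internal peak was higher in 134 of the 266 genes (50.4%, 95% exact interval 44.2 to 56.5). It was higher in every replicate in 107 of the 256 genes with values in all of them (41.8%), and the first-TSS peak was higher in every replicate in 98 (38.3%). A replicate value is that of the highest overlapping region, which need not be the peak of the pair. In CG5973 the internal peak was higher in the pooled list (250 against 189), yet the first-TSS value was higher in every replicate. In the 231 genes with 1 internal TSS carrying a peak, where no choice of the highest was made, the median was -0.11. Where the first TSS had no opposite first TSS within 1000 bp the median was 0.13 (163 genes), and where it had one it was -0.15 (103 genes). The difference, without minus with an opposite TSS, was 0.34, 0.09 and 0.47 in the replicates, a mean of 0.30 ± 0.20 (SD, n = 3; exact sign-flip p = 0.25).

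**Figure D4:**
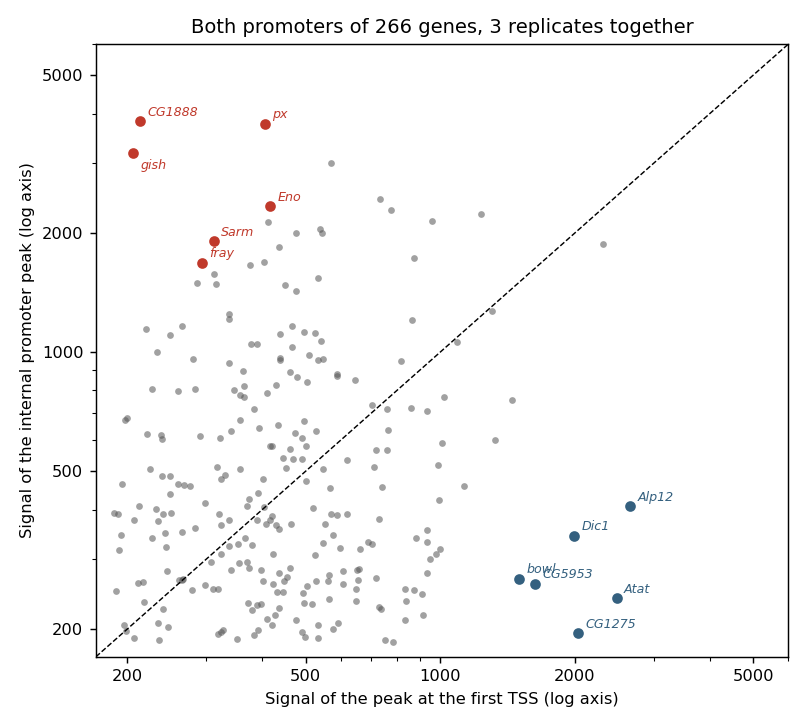
Signal of the highest internal promoter peak (vertical) against the signal of the peak at the first TSS (horizontal) of the same gene, both on log axes, for 266 genes with the 3 replicates together; the dashed line marks equal signal. The labelled genes are the 6 with the highest and the 6 with the lowest ratio that had the same sign in all 3 replicates, and 134 genes lie above the line.

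The spread between genes was wide, from a log2 ratio of 4.16 to -3.38. The genes named at either end were chosen for their ratio and for the same sign in all 3 replicates. CG1888 had 1620, 1271 and 936 at the internal TSS in replicates 1, 2 and 3, against 114, 66.9 and 27.7 at the first TSS, a mean log2 ratio of 4.38 ± 0.64 (SD, n = 3). Its 2 promoters lie 1177 bp apart, the nearest spacing among these 6 genes. In gish the internal TSS had 1345, 1115 and 721 and the first TSS 39.8, 81.0 and 72.9, a mean log2 ratio of 4.06 ± 0.92. In px the internal TSS had 1558, 1345 and 900 and the first TSS 189, 121 and 84.7, a mean log2 ratio of 3.31 ± 0.23. An internal value above the first-TSS value in every replicate was a condition of the choice of these genes. Sarm, which encodes an enzyme of axon degeneration, had 793, 604 and 498 at the internal TSS, against 154, 80.8 and 77.2 at the first. Eno had 927, 846 and 566 at the internal TSS and 171, 136 and 103 at the first TSS. For fray, a kinase of the family that regulates ion cotransporters, the values were 727, 568 and 387 at the internal TSS and 129, 65.5 and 80.5 at the first TSS. Folds in the pooled list were 17.9 for CG1888, 15.5 for gish and 9.30 for px.

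At the other end the first TSS had the higher signal. CG1275 had 74.8, 63.6 and 49.2 at the internal TSS in replicates 1, 2 and 3, against 803, 719 and 519 at the first TSS, a mean log2 ratio of -3.44 ± 0.05 (SD, n = 3). Atat, the gene of an α-tubulin acetyltransferase, had 85.7, 66.5 and 66.2 at the internal TSS and 938, 882 and 654 at the first, a mean log2 ratio of -3.49 ± 0.22. Alp12, an alkaline phosphatase gene, had 163, 157 and 98.2 at the internal TSS and 1079, 976 and 606 at the first TSS (-2.66 ± 0.06). The internal peaks of CG1275 and Atat were weak members, at 195 and 239 in the pooled list, where the lowest signal of the reproducible set was 184.6. Dic1, a mitochondrial dicarboxylate carrier gene, had 344 at the internal TSS and 1993 at the first in the pooled list. The values were 260 and 1627 for CG5953, and 268 and 1500 for bowl, which encodes a zinc finger protein of the odd-skipped family.

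Of the 574 members, 347 (60.5%) belonged to a gene with a reproducible peak at its first TSS, and 227 did not. Of the 227, 120 had a weaker region of the pooled list at the first TSS and 107 had none. Members without a first-TSS peak had a median signal of 336, and members with one 375. The ratio of those medians was 0.912, 0.893 and 0.831 in replicates 1, 2 and 3, a mean of 0.878 ± 0.0425 (SD, n = 3; exact sign-flip p = 0.25). Fhos had 875, 764 and 620 at its internal TSS in the replicates, and a region of 139 at its first TSS in the pooled list, against 2266 at the internal one. For RapGAP1 the internal values were 853, 764 and 581, and no region of the pooled list lay at its first TSS, 48406 bp upstream. CG8036, a transketolase gene, had 888, 678 and 444 at the internal TSS, and 52 at its first TSS in the pooled list, where the internal peak had 2025. In chn, which encodes a zinc finger repressor of neural genes, the internal values were 666, 604 and 430, with 166 at the first TSS in the pooled list against 1762. In these 4 genes the first TSS thus fell below the authors' threshold, and in RapGAP1 it held no listed region.

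Several genes carried peaks at more than 1 internal site. A single site had a peak in 390 genes, 2 sites in 42, 3 sites in 7 and 4 sites in 5. dnc, the cAMP phosphodiesterase gene known for its role in learning, had peaks at 4 of 7 eligible sites and none at its first TSS. From 5' to 3', at 79628, 112941, 118841 and 152967 bp downstream, the highest pooled signal was 1754, 267, 1474 and 549. The strongest had 713, 586 and 459 in replicates 1, 2 and 3 (chrX:3255505-3256001). Rtnl1 had peaks at 4 of 6 sites, with 1188, 687, 305 and 2289 at 4792, 9350, 10218 and 12339 bp downstream, and 776 at the first TSS. The strongest of them, at the most 3' site, had 947, 756 and 600 in the replicates, against 346, 213 and 187 at the first TSS. In both genes the signal therefore varied several-fold between sites, without an order along the gene.

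Pgk, a glycolytic kinase gene, had a peak at each of its 4 sites. The pooled signals there were 274, 437, 256 and 999 from 5' to 3', and 232 at the first TSS. Svil, which encodes an actin-binding protein of the villin family, had 347, 596, 328 and 615 at 4 of 15 sites spread from 34433 to 116883 bp downstream, and 291 at the first TSS. In cnc peaks lay at 4 of 7 sites, with 449, 203, 252 and 542, and the first TSS had a region of 159 outside the reproducible set. Members that share a stretch of DNA can match 1 replicate region, as do the Pgk sites at 2079 and 2921 bp. Replicate values of such members are not separate measurements. The Pgk peaks at 3755 and 4581 bp also overlapped, and the former had its summit 361 bp downstream of its TSS. The summit of the Pgk peak at 2079 bp lay 332 bp downstream of its TSS. The 4 Pgk peaks were therefore not 4 separate stretches of DNA.

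In 9 gene lists, chosen by function, the share of genes with an internal peak was set beside the 26.7% of all 1665 genes with an eligible internal site. These are counts without a test, and the lists are small. Transcription factors of patterning and related families had an internal peak in 14 of 30 genes, of which 8 had no first-TSS peak. After REPTOR the strongest were Pdp1, a bZIP factor, with 456, 367 and 275 in replicates 1, 2 and 3, and trh, which directs tracheal development, with 400, 361 and 222. The internal peak of Pdp1 was higher than that of its first TSS, at 93.7, 72.5 and 55.1, while trh had a first-TSS region of 54.0 in the pooled list against 974 at the internal TSS.

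Signalling kinases and phosphatases had internal peaks in 11 of 33 genes, 9 of them with a first-TSS peak. Here gish was followed by sgg, the fly GSK3, with 881, 659 and 445 at the internal TSS and 245, 181 and 106 at the first, and by for, a cGMP-dependent kinase, with 464, 327 and 274 at the internal TSS.

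RNA-binding protein genes had internal peaks in 11 of 33, and in 7 of these the first TSS had none. mbl, the splicing factor muscleblind, had 353, 335 and 248 in replicates 1, 2 and 3, and no region of the pooled list lay at its first TSS. Imp had a pooled signal of 440 and heph, the polypyrimidine tract-binding protein, had 372. BTB and related zinc finger factors had internal peaks in 5 of 14 genes, 4 of them without a first-TSS peak. They were led by lola (1119), whose peak matched a region in replicate 3 alone, and by Trl, which encodes GAGA factor itself (347, 339 and 224 in the replicates). The peak of fru, a factor of sexual differentiation, had 353 in the pooled list, near the members' median of 358.

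Nuclear receptor and ecdysone response genes had internal peaks in 6 of 16. The ecdysone-induced receptor gene Eip75B had 472, 462 and 286 in replicates 1, 2 and 3 at a TSS 64875 bp downstream, with no region of the pooled list at the first TSS. Eip63F-1 had 398, 396 and 220 at the internal TSS, against 188, 165 and 112 at the first TSS, and Hnf4 had 288, 283 and 230, against 185, 70.7 and 21.6. Chromatin and transcription regulators had internal peaks in 7 of 22 genes. The strongest were Sin3A, a corepressor scaffold (940 at the internal TSS and 337 at the first TSS), Top1, topoisomerase I (770 and 364), and jing, a zinc finger gene with 554 at the internal TSS.

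Cell cycle and growth genes had internal peaks in 5 of 9. CycE, the cyclin that drives S phase, had 507, 384 and 322 in replicates 1, 2 and 3, and a first-TSS region of 68.1 in the pooled list against 1213. Dp, the partner of E2F factors, had 1204 at the internal TSS and 862 at the first TSS. CycG had 355, 135 and 53.4 in replicates 1, 2 and 3, where the medians of all members were 169, 136 and 93.0, and no pooled region lay at its first TSS. Metabolism and membrane transport genes had internal peaks in 7 of 27, with CG8036, the sodium pump gene Atpalpha (1067 at the internal TSS and 540 at the first TSS) and Pgk as the strongest. Ion channel, synapse and neuronal signalling genes had the lowest share, 5 of 29. After dnc these were led by unc-5, a netrin receptor gene (914), and SERCA, the calcium pump gene (399).

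**Figure D5:**
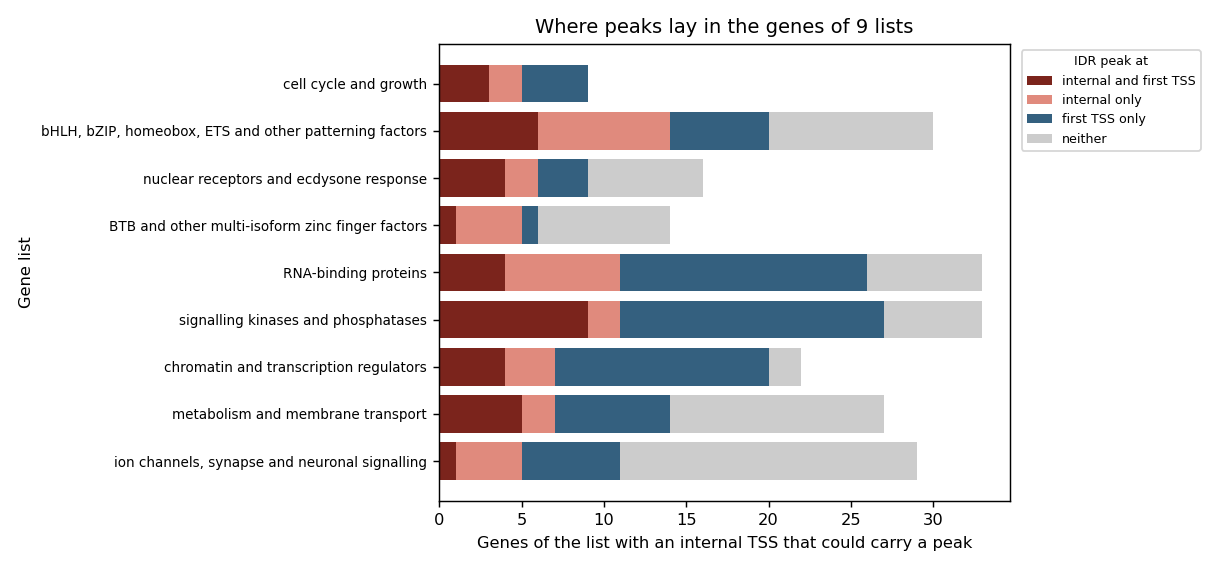
Number of genes in each of 9 lists with an eligible internal site, split by where a reproducible peak lay: at an internal and the first TSS, at an internal TSS only, at the first TSS only, or at neither. Lists are ordered by the share with an internal peak, from 5 of 9 cell cycle and growth genes at the top to 5 of 29 ion channel, synapse and neuronal genes at the bottom.

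The rule's thresholds cut through continuous distances. The members nearest to the 1000 bp limit were at ERR (1001 bp downstream, signal 277) and primo-1 (1012 bp, 259), and the nearest peaks left out were at Not1 (997 bp, 611) and CG15784 (994 bp, 824). At the 500 bp limit the outermost members were at jar (497 bp from the TSS, 891) and psq (496 bp, 227), and the nearest peaks left out were at prage and stv (both 504 bp, 1419 and 394).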

How the data were processed

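Region lists in narrowPeak format were deposited for 3 replicates, for the replicates together (the pooled list) and for the reproducible set left by an irreproducible discovery rate (IDR) step, against 1 control that was not analysed here, per the file notes. The signal per region is the authors' deposited value. No aligner, peak caller or IDR threshold is named in the sources used here, depth per sample was unknown, and no read counts entered any test. The labels call the replicates biological and say no more of their source. Their antibody field gives CG12659 where the description gives anti-GFP, which was taken as correct.

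The dm6 lists were joined to Ensembl release 115 genes (BDGP 6.54, 6 arms) and the release 6 genome sequence from RefSeq. A replicate region matched a peak when it overlapped it by 50% of the shorter; the highest match was taken. Fisher's exact tests, exact sign-flip tests over 3 replicates and exact (Clopper-Pearson) 95% intervals were used; intervals cover counting error only. The members, gene lists, motifs and tests were chosen with earlier results of these data known. Results of 1 gene list are not reported here. Named genes were the 20 members of highest signal, up to 3 per list, the 6 highest and 6 lowest ratios with 1 sign in all replicates, the 5 genes with most internal sites carrying a peak, and the 2 nearest each threshold on either side. Sequences were taken outside the arm 2R. The class rule and the motif test were tried on simulated data. Alternatives were other TSS and downstream distances, the peaks above the median signal, each replicate left out, 1 peak per TSS, other motif windows and overlaps, weaker regions at the first TSS, and canonical transcripts left out. Tools were Python 3.11.15 with numpy 2.4.6, pandas 2.3.3, matplotlib 3.10.9 and scipy 1.17.1.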

Additional observations from a re-analysis of the deposited data

How the results depend on the processing

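Placing the TSS limit at 200 bp changed most values. It left 278 internal promoter peaks, of which 41.4% had a first-TSS peak. Peaks then lay at 9.57% of internal sites and 35.9% of the first TSSs of the same genes, and the median log2 ratio was -0.13. The upstream share was 68.7% for internal promoter peaks against 69.4% for first-TSS peaks (two-sided Fisher's exact p = 0.840), the reverse of the order at 500 bp. Another start codon was used by 46.4%. At 1000 bp the share with a first-TSS peak was 68.3%, internal sites with a peak 25% and first TSSs with a peak 55.6%. With a downstream limit of 2000 bp, 60.9% used another start codon. Among peaks above the median signal there were 289 members, 42.6% with a first-TSS peak, at 10.5% of sites, with 32.2% of first TSSs and a median log2 ratio of 0.40. The share of members among the highest regions of every replicate was then 97.2%, no longer past the threshold. With weaker regions counted at the first TSS, 81.4% of members had one. The median log2 ratio was 0.16 with replicate 2 alone and -0.11 in genes with 1 internal TSS carrying a peak.

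To leave a replicate out, the 8952 highest regions of a remaining replicate were kept where they matched such a region of the other. Summits were those of that replicate, and no IDR step was made. With replicates 1, 2 and 3 left out the sets held 7530, 7509 and 7771 regions, so shares fall by construction. Members with a first-TSS peak were then 51.8% to 56.5%, internal sites with a peak 15.9% to 17.5% and first TSSs with a peak 42.2% to 44.9%. The log2 ratio was instead taken in the full reproducible set, as the mean of the medians in the remaining replicates, and was 0.016 to 0.12. Of the 10 motifs, 3 passed for summits within 100 bp of the TSS, 1 for those beyond it and 8 in windows centred on the TSS. There TATAAA, which had not passed, had an odds ratio of 0.507 in the other direction; these 3 settings were chosen after seeing the data. The Inr core lost its call in 6 settings, each replicate left out among them. In all, 65 of 97 alternatives of the main results and 118 of 140 of single motifs counted as the same. For a motif this meant the same side of the threshold, with direction compared only where it passed in either setting. A motif that passed in neither setting could thus change direction and still count as the same. Tested shares had to keep direction and side of the threshold, and other values to stay within the interval, the spread or a fixed fold. Samples could not be paired, because the replicate numbers lie within 1 group and pair no samples across groups. The ratios and motif counts within a gene pair promoters, while the motif tests between the classes did not use that pairing. Without read counts, the precision of a signal value was unknown.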
